A study of Rattus norvegicus with 28 samples.

Results

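The genes described here are transcriptional regulators of the rat dorsal root ganglion (DRG) in inflammatory pain. They are all 186 genes that the study listed as encoding a transcriptional regulator and as changed against naïve rats in both of its pain models, out of 32754 genes in the RNA-seq count table. The models were a sciatic nerve tied loosely with sutures (chronic constriction injury, CCI) and inflammation of the hind paw by complete Freund's adjuvant (CFA), an oil emulsion of killed mycobacteria. Only the CFA RNA-seq libraries were analysed here, and the naïve and CCI RNA-seq libraries were not, so no gene is called higher or lower after injury. The list had been drawn up in part from the same CFA libraries, so the levels below are a description and carry no test of a condition. Both CFA libraries came from adult male Sprague-Dawley rats of 12 weeks, and no transgene or further treatment was stated. Each library held RNA pooled from the ipsilateral lumbar L4 to L6 DRGs of 1 rat, taken 48 h after the injection, and only rats with mechanical hypersensitivity had been kept. A group of 2 rats gives a spread between animals with little precision, and SDs below are over n = 2.

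Transcriptional regulators set which genes a cell reads. DNA-binding factors recognise short sequences in promoters and enhancers through a zinc finger, homeobox, bHLH, forkhead, ETS or Sox domain. Cofactors and chromatin factors do not read a sequence by themselves as a rule, and act on nucleosomes or on the polymerase. In the DRG such factors define the types of sensory neuron and the satellite glia and Schwann cells around them, and several take part in the response of a neuron to axon damage. A ganglion is a mixture of these cells, so fewer cells of a type and less RNA per cell cannot be told apart in bulk RNA.

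Markers of the cells of a ganglion were read from 11 sensory neuron, 7 glial and 3 mesenchymal or vascular genes. They could be paired with the table only through the genes that the study listed as changed in both models, so each had to be detected to be included, and their presence is no independent check of the tissue. Levels are given in CPM, a count scaled to a common library total of 1 M counts. The neuronal markers lay between 247 and 11580 CPM and summed to 35954 CPM in CFA replicate 1 and 37171 CPM in CFA replicate 2, while the glial markers summed to 4316 and 4164 CPM and the mesenchymal or vascular markers to 598 and 583 CPM. Library totals were 10.5 M and 28.8 M counts on genes, so the second library was 2.74 times as deep. A floor of 3 counts corresponds to 0.285 CPM in replicate 1 and 0.104 CPM in replicate 2. CPM divides a count by the library total and is not corrected for transcript length, so the orders given below are orders of reads and not of transcripts.

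To show what lies in front of these genes, the 250 bases before the RefSeq transcription start of 6 regulators are printed, on the GRCr8 build, 5′ to 3′ on the strand of the gene. They are the member with the most reads in each of 6 groups. These are the C2H2 zinc finger, homeobox, Sox, bHLH and chromatin factor groups, and that of Rel, STAT, Runt, EBF, T-box and related factors. Capitals mark matches to 12 short motifs that were searched on both strands.
Zeb2, chr3:49754324-49754573, minus strand: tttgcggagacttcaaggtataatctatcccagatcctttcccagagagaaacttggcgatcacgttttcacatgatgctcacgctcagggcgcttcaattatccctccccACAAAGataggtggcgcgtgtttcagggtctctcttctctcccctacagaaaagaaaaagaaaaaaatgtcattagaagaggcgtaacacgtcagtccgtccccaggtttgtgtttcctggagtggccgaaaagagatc
Pou4f3, chr18:34640941-34641190, plus strand: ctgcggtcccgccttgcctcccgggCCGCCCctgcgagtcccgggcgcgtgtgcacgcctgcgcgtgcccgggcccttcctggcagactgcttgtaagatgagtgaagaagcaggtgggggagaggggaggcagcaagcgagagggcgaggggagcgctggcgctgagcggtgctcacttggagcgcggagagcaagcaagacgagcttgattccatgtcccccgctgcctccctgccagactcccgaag
Sox13, chr13:47427573-47427822, minus strand: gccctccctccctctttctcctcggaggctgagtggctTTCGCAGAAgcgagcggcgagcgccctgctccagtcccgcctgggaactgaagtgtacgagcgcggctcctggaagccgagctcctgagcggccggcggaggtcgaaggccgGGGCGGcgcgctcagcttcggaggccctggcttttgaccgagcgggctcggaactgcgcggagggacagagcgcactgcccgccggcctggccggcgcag
Epas1, chr6:13624730-13624979, minus strand: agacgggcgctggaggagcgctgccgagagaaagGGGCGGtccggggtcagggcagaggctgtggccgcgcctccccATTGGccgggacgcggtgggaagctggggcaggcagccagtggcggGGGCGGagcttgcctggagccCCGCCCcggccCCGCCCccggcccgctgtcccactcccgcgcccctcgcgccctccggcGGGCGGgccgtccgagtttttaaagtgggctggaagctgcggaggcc
Zmynd11, chr17:65234659-65234908, plus strand: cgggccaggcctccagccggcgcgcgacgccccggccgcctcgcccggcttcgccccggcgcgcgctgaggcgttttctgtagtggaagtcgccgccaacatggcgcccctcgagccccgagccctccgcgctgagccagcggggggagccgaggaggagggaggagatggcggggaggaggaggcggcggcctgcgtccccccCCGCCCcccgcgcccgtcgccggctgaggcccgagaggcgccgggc
Stat3, chr10:86363360-86363609, minus strand: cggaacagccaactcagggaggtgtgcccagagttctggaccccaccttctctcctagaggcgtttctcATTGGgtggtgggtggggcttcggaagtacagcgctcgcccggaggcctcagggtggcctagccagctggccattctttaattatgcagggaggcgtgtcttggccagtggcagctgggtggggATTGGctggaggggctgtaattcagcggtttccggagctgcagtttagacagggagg

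These windows differed in base composition. Together with the 50 bases after the start, G and C made up 49% of the window of Zeb2, 62.3% for Stat3, 67.3% for Pou4f3, 73.0% for Sox13, 75.7% for Epas1 and 81.7% for Zmynd11, beside a median of 55.3% over the promoters of 19005 protein-coding genes. The GC box GGGCGG, which Sp and Klf factors read, was found 5 times before Epas1, with first bases 216, 127, 106, 95 and 47 bases before the start, and once each before Pou4f3, Sox13 and Zmynd11. It was present in 43.1% of all promoters. The promoters behind this and the following shares were 300 bases long, with the 50 bases after the start, while only the 250 before it are printed. The CCAAT box occurred before Stat3 at 181 and 57 bases and before Epas1 at 173 bases, in each case on the opposite strand, and in 38.4% of all promoters. Sox13 held the STAT motif TTCNNNGAA at 212 bases (8.26% of all promoters), and Zeb2 held the Sox and TCF core CTTTGT at 139 bases, on the opposite strand (16.4% of all promoters).

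No match to the other motifs was found in the printed bases. These were the TATA box TATAAA (13.1% of all promoters), the cyclic AMP response element TGACGTCA (2.22%), the E-box CACGTG (7.27%), the forkhead motif GTAAACA (3.33%), the ETS motif CCGGAAG (11.2%), the octamer ATTTGCAT (1.75%), the TEAD motif GGAATG (12.5%) and the Egr motif GCGTGGGCG (0.763%), whose last letters can overlap a GC box. A promoter was matched for 146 of the 186 members, which is 78.5% and under the 80% needed for a statement over the list, so composition and motifs over the whole list are void and are not given.

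Most regulators had few reads. The median over the 186 members was 11.1 CPM (quartiles 5.50 and 24.6), with 11.4 CPM in replicate 1 and 10.9 CPM in replicate 2. The median of the 15115 genes of at least 10 counts in each library was 21.4 CPM (quartiles 6.92 and 58.9), and 56 members (30.1%) reached it. The other 1760 genes that the study listed as changed in both models had a median of 22.4 CPM (quartiles 7.26 and 93.0), and 50.9% of them reached the same level. At the top of the range stood 14 members (7.53%) with 100 CPM or more, beside 23.5% of the other listed genes and 14.6% of all genes with at least 10 counts. Together the regulators took 0.576% of the counts of replicate 1 and 0.569% of those of replicate 2.

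The members lay mostly in the lower part of the range of levels. Of the 184 members with at least 10 counts in both libraries, 63 were below 6.92 CPM and 65 between this value and 21.4 CPM, which are the lower quartile and the median of the 15115 genes. A further 36 lay between 21.4 and 58.9 CPM, the upper quartile, and 20 above it. Below 1 CPM lay 1 of these 184 members (0.543%), beside 1.47% of the 15115 genes. Without the filter 3 of the 186 members (1.61%) lay there, beside 29.1% of the genes with at least 1 count in either library. This description depends on the genes it is set against, since 54.3% of the members were at or above the median of the 21122 genes with at least 1 count in either library, 9.09 CPM.

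**Figure D1:**
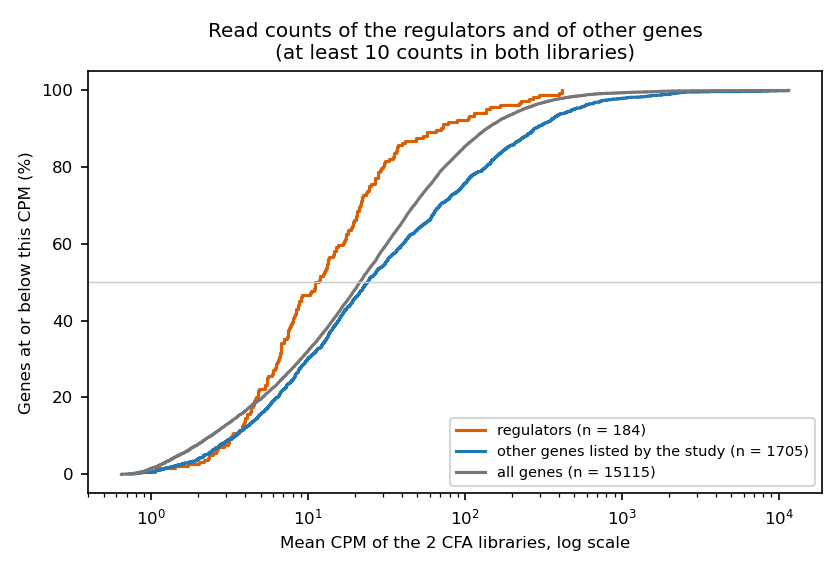
Cumulative share of genes (%) against mean CPM on a log scale, for 184 regulators, 1705 other genes listed by the study and all 15115 genes, each with at least 10 counts in both CFA libraries. The curve of the regulators crosses 50% at 11.4 CPM, to the left of all genes at 21.4 CPM.

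Levels differed between families, which were read from the symbols. RNA-binding regulators had the highest median, 71.4 CPM over 4 genes, followed by cofactors and signalling regulators with 48.6 CPM over 11 genes. DNA-binding families lay lower. Zinc finger genes made up 52 of the 186 members (28.0%) and had a median of 7.46 CPM, and 8 of them reached the median of all genes. Not all of the 52 are DNA-binding factors. They include 9 of other kinds, among them Zfp36l1 and Zfp36l2, which act on RNA but were not placed with the RNA-binding regulators. The lowest medians were those of the 5 Sox genes (5.95 CPM), none of which reached the median of all genes, and of the 9 homeobox genes (5.57 CPM), of which 1 did.

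**Figure D2:**
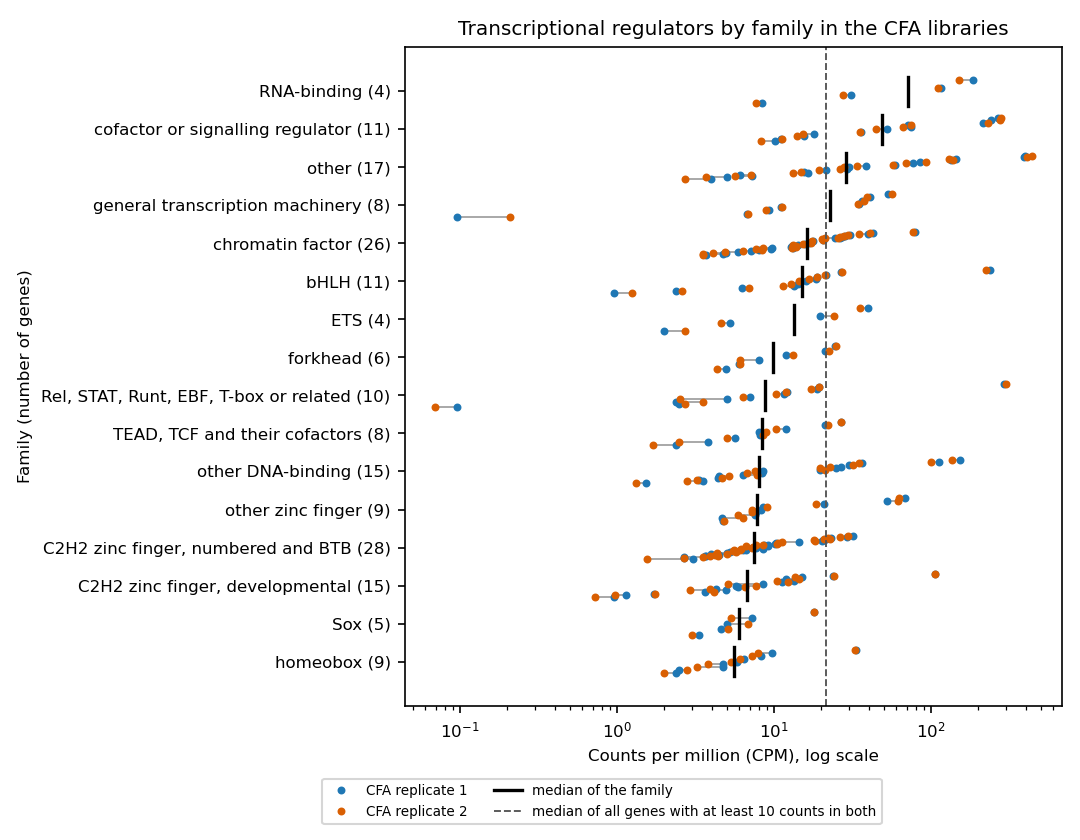
Level of each of the 186 regulators in both CFA libraries, in CPM on a log scale, by family with the number of genes in brackets. Each pair of joined points is 1 gene, short bars are family medians from 71.4 CPM (RNA-binding) to 5.57 CPM (homeobox), and the dashed line is the median of all genes of at least 10 counts in each library, 21.4 CPM.

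The members with the most reads were not classical DNA-binding factors, with 1 exception. Kidins220, a membrane scaffold that neurotrophin receptors use, had 397 CPM in replicate 1 and 441 CPM in replicate 2 (419 ± 30.8, SD, n = 2), above 98.0% of the genes that passed 10 counts. Arhgap35, a GTPase-activating protein, had 391 and 411 CPM. The ranges of these genes over the libraries overlapped. Stat3, the DNA-binding factor that cytokine receptors activate, followed with 293 and 298 CPM (296 ± 3.58). Maged1, an adaptor that binds the p75 neurotrophin receptor, had 269 and 279 CPM, and Cand1, which exchanges the subunits of cullin ubiquitin ligases, had 241 and 274 CPM. The ranges of Maged1 and Cand1 overlapped, and that of Stat3 lay above both. These 5 genes took 0.159% and 0.170% of all counts.

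Among the cofactors and signalling regulators, 7 of 11 reached the median of all genes. Ndn, an imprinted gene of postmitotic neurons that encodes necdin, had 213 CPM in replicate 1 and 230 CPM in replicate 2. Notch1, the receptor whose cleaved inner part acts as a coactivator, had 71.0 and 74.3 CPM, while Notch4, its relative of the endothelium, had 10.2 and 8.26 CPM and was the lowest of the family. Genes placed in no family by their symbol numbered 17, with a median of 28.9 CPM, and ran from Kidins220 down to Ccdc62, a coiled-coil coactivator of oestrogen receptors, at 3.99 and 2.71 CPM. Gas7, a growth arrest gene that shapes neurites, was the third of them at 144 and 130 CPM.

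RNA-binding regulators were few and ran from 8.03 to 168 CPM. Ddx17, an RNA helicase and coactivator, had 185 CPM in replicate 1 and 151 CPM in replicate 2 (168 ± 24.0). The splicing factor Srsf2 had 116 and 111 CPM. Tial1, an RNA-binding protein of stress granules, had 30.9 and 27.3 CPM, and Noct, a gene with a daily rhythm, had 8.36 and 7.70 CPM. All 4 were lower in replicate 2, as were 63.0% of the 184 members that passed 10 counts and 52.5% of all genes that did. The 95% interval of the ratio between the libraries, for counting error only, included equal levels for Srsf2, Tial1 and Noct but not for Ddx17.

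The general transcription machinery was represented by 8 genes with a median of 22.9 CPM. Ccnt2, a cyclin subunit of the elongation factor P-TEFb, led with 52.9 and 56.2 CPM. Gtf3c2, a subunit of TFIIIC in RNA polymerase III transcription, had 40.9 and 39.3 CPM, and Eloa, the Elongin A subunit, had 36.4 and 37.5 CPM. At the other end was Gtf2a1l, the germ cell form of a TFIIA subunit, with 1 count in replicate 1 and 6 in replicate 2. Its exact Poisson intervals were 0.00241 to 0.530 CPM and 0.0764 to 0.453 CPM, for counting error only.

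Chromatin factors were the second largest family, with 26 genes, a median of 16.2 CPM and 8 at or above the median of all genes. They ranged from 3.62 to 77.9 CPM, and none reached 100 CPM. Zmynd11, a reader of methylated histone H3.3, had the most reads with 79.1 CPM in replicate 1 and 76.8 CPM in replicate 2. Mta2, a subunit of the NuRD deacetylase complex, had 42.4 and 41.0 CPM, and Ss18, a subunit of the BAF remodelling complex, had 39.4 and 34.8 CPM. Of the 5 Polycomb genes, which keep genes silent through histone modification, 4 lay below the median of the family. The exception was Phf1 with 20.9 and 20.2 CPM. Phc1 had 13.0 and 13.7 CPM, and Ezh2, the methyltransferase itself, had 7.98 and 8.40 CPM. Pcgf2 had 4.75 and 3.50 CPM and Cbx2, the lowest of all chromatin factors, had 3.71 and 3.54 CPM. Summed over these 5 genes the level was 50.4 CPM in replicate 1 and 49.4 CPM in replicate 2.

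Zinc finger genes fell into 3 groups with similar medians. The 28 numbered and BTB genes had a median of 7.46 CPM and a range of 2.30 to 30.7 CPM. Zfp142 stood at 31.9 and 29.5 CPM, Zfp512b at 29.3 and 26.5 CPM and Zfp386 at 23.0 and 22.0 CPM, so no gene of this group was high. Bcl6b, a repressor related to Bcl6, was the lowest with 3.04 and 1.56 CPM.

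The 15 developmental zinc finger genes had a median of 6.70 CPM, yet they held a gene of over 100 CPM. Zeb2, whose promoter is shown above and which Schwann cells need for myelination, had 106 CPM in replicate 1 and 105 CPM in replicate 2 (105 ± 0.246). The next gene, the repressor Klf3, had 23.9 and 24.1 CPM, and Egr2, the regulator of myelin genes, had 15.1 and 13.7 CPM. Gli1, a target and effector of Hedgehog signalling, had 8.46 and 5.10 CPM and Zic2, a patterning factor, had 4.94 and 2.91 CPM. Sall1 was the lowest at 0.951 and 0.729 CPM, from 10 and 21 counts. In the third group were 9 zinc finger genes of other kinds with a median of 7.74 CPM, and its leading genes act on RNA. Zfp36l2 and Zfp36l1, which bind AU-rich elements and hasten mRNA decay, had 68.7 and 62.7 CPM and 52.8 and 61.6 CPM. Ankzf1, a factor of ribosome quality control, had 20.9 and 18.5 CPM, and Zbed3, which binds axin, had 4.75 and 4.82 CPM.

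Homeobox genes ranged from 2.18 to 33.0 CPM, and 1 gene stood well above the others. Pou4f3, a POU factor of sensory cells, had 33.5 CPM in replicate 1 and 32.6 CPM in replicate 2 (33.0 ± 0.624), while the second, the neural POU factor Pou3f2, had 9.70 and 7.91 CPM. The Hox genes, which carry the position of a segment along the body axis, lay below 10 CPM in both libraries. Hoxa6 had 8.27 and 7.25 CPM, Hoxb3 5.80 and 5.34 CPM, Hoxc4 4.75 and 3.78 CPM, Hoxd4 4.75 and 3.23 CPM, Hoxb4 2.47 and 2.81 CPM, and Hoxc5 2.38 and 1.98 CPM.

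Sox genes were few and low. Sox13, with 18.1 CPM in replicate 1 and 18.0 CPM in replicate 2, stood above the other 4 genes in both libraries. Sox11, which sensory neurons use during growth and after axon damage, had 7.22 and 5.34 CPM, and the endothelial Sox17 had 5.04 and 6.87 CPM, so the order of these genes changed between the libraries. The glial factors Sox8 and Sox9 had 4.56 and 5.06 CPM and 3.33 and 3.02 CPM.

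The 11 bHLH genes had a median of 15.1 CPM and 1 gene far above it. Epas1, the oxygen-regulated factor HIF-2alpha, had 236 CPM in replicate 1 and 223 CPM in replicate 2 (230 ± 9.76), above 94.9% of the genes that passed 10 counts. Heyl, a target of Notch, followed with 26.5 and 27.2 CPM, and Arntl, the clock factor also called Bmal1, with 21.6 and 21.0 CPM. Tcf4, a partner of many bHLH factors, had 18.5 and 16.7 CPM. Hes5, a Notch target of glia and precursors, had 2.38 and 2.60 CPM, and Npas2, which can take the place of Clock beside Arntl, was the lowest with 0.951 and 1.25 CPM.

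Factors of the Rel, STAT, Runt, EBF, T-box and related kinds covered the widest range of any family on a log scale. That rank rested on Tbx19, described below. Without Tbx19 the family ran from 2.59 to 296 CPM, a narrower range on this scale than that of the bHLH genes, 1.10 to 230 CPM. Well below Stat3 lay Ebf2, a factor of neurons and adipocytes, with 18.7 and 17.1 CPM. Nfatc4, which calcineurin brings into the nucleus, had 5.04 and 2.53 CPM. Tbx19, a factor of pituitary corticotropes, was read once in replicate 1 and 2 times in replicate 2, and both values are below the floor of 3 counts. Among 15 other DNA-binding genes, Ybx1, a cold-shock protein that binds DNA and RNA, had 152 and 136 CPM (144 ± 11.6), and Creb3, a bZIP factor held in the endoplasmic reticulum, had 113 and 101 CPM. Atf5, a bZIP factor of the stress response, had 36.1 and 35.0 CPM, and Rfx2, a factor of ciliated cells, had 1.52 and 1.32 CPM.

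In the ETS family Elk4, a partner of serum response factor, had 39.9 and 35.5 CPM, Ets1 had 19.5 and 24.2 CPM, Etv4, which neurotrophins induce in sensory neurons, had 5.23 and 4.58 CPM and the endothelial factor Erg had 1.996 and 2.71 CPM. The forkhead genes lay between 4.64 and 24.6 CPM. Foxo4, a factor that insulin signalling keeps out of the nucleus, had 24.3 and 24.9 CPM and Foxj2 had 21.2 and 22.5 CPM. Foxc1 and Foxc2, paralogues of mesenchyme and vessels, had 11.98 and 13.3 CPM and 4.94 and 4.34 CPM.

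The 2 TEAD factors of the list had fewer reads than the coactivators that TEAD factors bind. Yap1 and Wwtr1, the coactivators that Hippo signalling restrains, had 26.8 and 26.9 CPM and 21.0 and 22.0 CPM. Tead3 and Tead2, which bind DNA, had 5.61 and 5.03 CPM and 2.38 and 1.70 CPM, and Ajuba, a LIM protein that inhibits the Hippo kinases, lay between them with 11.9 and 10.3 CPM. Yap1 and Wwtr1 were above Ajuba, Tead3 and Tead2 in both libraries. On the Wnt side the pattern was not the same. Tcf7l1 had 7.98 and 8.88 CPM and Tcf7l2 had 8.17 and 8.46 CPM, whereas Tle2, a corepressor of TCF factors, was lower with 3.802 and 2.498 CPM.

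Grouped by role instead of by domain, the highest median was that of 4 regulators listed here under the response to axon injury. This role was not tested in these libraries, which come from paw inflammation. The 4 were Stat3, Creb3, Atf5 and Sox11, and they had a median of 71.0 CPM. Their sum was 449 CPM in replicate 1 and 439 CPM in replicate 2. Their levels were not alike, from 6.28 CPM for Sox11 to 296 CPM for Stat3, and Stat3 carried most of the sums. The 4 Notch and Hes genes had a median of 18.0 CPM and sums of 110 and 112 CPM. For the 5 clock and PAS genes, among them Arnt, the shared partner of PAS factors, with 15.9 and 14.3 CPM, the median was 15.1 CPM. Epas1 carried most of their sums of 283 and 267 CPM. The 7 genes of the glial lineage had a median of 14.4 CPM and sums of 202 and 208 CPM, led by Zeb2 and Zfp36l1. Low medians were found for 5 genes of Hippo output (11.1 CPM), 3 genes of the Egr and Nab group (11.1 CPM), 3 TCF and TLE genes (8.32 CPM), 5 Polycomb genes (8.19 CPM) and 6 endothelial genes (7.58 CPM). The endothelial genes were not all low, since Epas1 is among them, and their sums were 276 and 266 CPM. Among the other groups with low medians the highest sums were 67.7 and 65.8 CPM, for Hippo output. Nab2, the corepressor of Egr factors, had 11.03 and 11.2 CPM and lay between Egr2 and Egr3 in both libraries, the latter with 5.70 and 7.70 CPM.

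**Figure D3:**
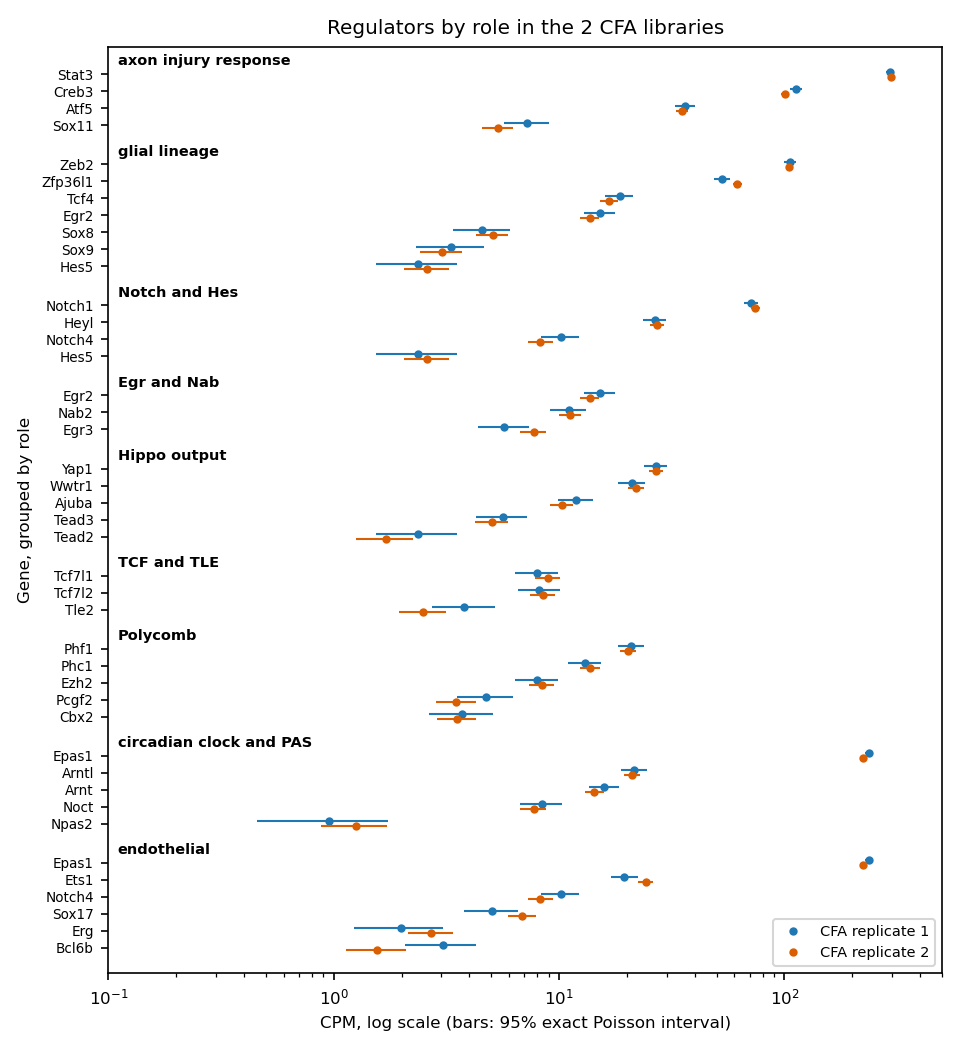
CPM on a log scale of the regulators in 9 role groups, with 1 point for each CFA library and its exact 95% Poisson interval, which covers counting error only. Stat3 and Epas1 stand at the right with means of 296 and 230 CPM, Npas2 lies near 1 CPM with the widest intervals, and genes that belong to more than 1 group are drawn in each.

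The libraries of the same condition were then compared gene by gene, since their spread limits what a level can show. Among 184 members with at least 10 counts in both libraries, 4 (2.17%) differed by more than 0.5 in log2(CPM + 1), while 593 of the 15115 genes did (3.92%), and 62 of 1705 other listed genes (3.64%). All 4 members were lower in replicate 2, and over all genes 2.68% were lower and 1.24% higher by this much. Both the count and the direction depended on the pseudocount. Without it 8 members passed 0.5 (7.75% of all genes), 7 of them lower (5.1% of all genes) and Runx2, a Runt factor of bone, higher with a log2 ratio of 0.56 (2.65% of all genes). With 5 CPM added the count was 0. The ratios below are without a pseudocount. Nfatc4 had 53 counts in replicate 1 and 73 in replicate 2, and its log2 ratio of CPM was -0.99 (95% interval -1.52 to -0.45). The ratio was -0.96 for Bcl6b (-1.65 to -0.26), -0.76 for Zic2 (-1.28 to -0.23) and -0.73 for Gli1 (-1.12 to -0.33), and the fifth of the largest differences was that of Tle2 with -0.61 (-1.18 to -0.01). These intervals are exact Clopper-Pearson intervals for counting error only, since reads without molecular identifiers are not independent molecules. The 5 genes had means between 2.30 and 6.78 CPM, in the lower part of the list. With 1 library against 1 library of the same group no test was made, and no difference between these rats can be assigned to a condition.

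**Figure D4:**
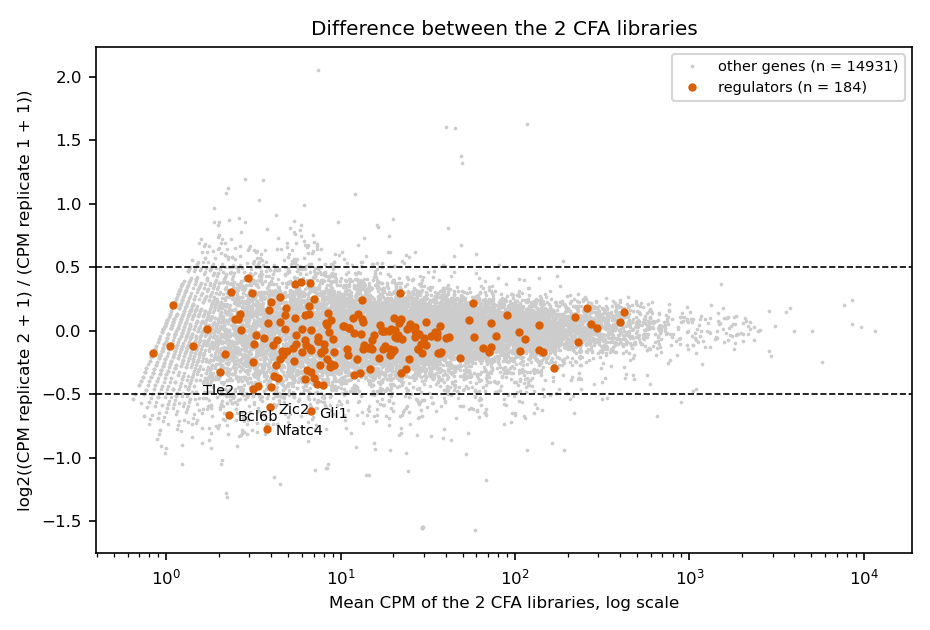
Difference between the CFA libraries, as log2((CPM replicate 2 + 1) / (CPM replicate 1 + 1)), against mean CPM on a log scale for 184 regulators and 14931 other genes with at least 10 counts in both. Dashed lines mark 0.5 in both directions, and the 4 regulators past a line, Nfatc4, Bcl6b, Gli1 and Zic2, are all below the lower one.

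By counting error alone, the interval of the ratio left out equal levels for 37 of 184 members (20.1%), 25.6% of all genes and 32.8% of the other listed genes. Such intervals narrow as counts rise, so these shares depend on depth, which was not matched. Of the 37, 28 were lower in replicate 2 (15.2% of the members, beside 14.2% of all genes) and 9 were higher (4.89%, beside 11.4%). Genes of 100 CPM or more were among both kinds. Ddx17 was lower in replicate 2 with a log2 ratio of -0.29 (-0.37 to -0.21), as were Ybx1 with -0.17 (-0.25 to -0.08) and Creb3 with -0.16 (-0.26 to -0.06). Kidins220 was higher with 0.15 (0.10 to 0.20), as was Cand1 with 0.18 (0.12 to 0.25). At lower levels, so were Zfp36l1 with 0.22 (0.09 to 0.36) and Ets1 with 0.31 (0.08 to 0.54). The rat and the preparation of its library cannot be told apart in these differences. Sox11 and Sox17, whose order changed, had ratios of -0.44 (-0.84 to -0.02) and 0.45 (0.00 to 0.91).

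A slight lean of the whole list went with this. The median log2 ratio of the members was -0.06 (SD 0.19), and 116 of 184 (63.0%) were lower in replicate 2, beside 52.5% of all genes (median -0.01, SD 0.22) and 50.03% of the other listed genes. Scaling by TMM or by DESeq2 size factors left 111 members lower. The median log2 ratio was then -0.042 (TMM) and -0.041 (DESeq2) for the members, beside 0.004 and 0.005 for all genes. The share of all genes lower under these scalings is not given here, so the 52.5% does not apply to the 111. In the families, 8 of 9 homeobox genes, 19 of 26 chromatin factors and 19 of 28 numbered or BTB zinc finger genes were lower in replicate 2, while 2 of 6 forkhead genes were. Neuronal markers went the other way in 7 of 11 genes, which were higher in replicate 2, and glial markers did so in 3 of 7, and their part in this lean was not tested. The SD of the ratio over members fell from 0.25 for 31 genes whose lower count was from 10 to under 50 to 0.20 for 87 genes from 50 to under 200, 0.12 for 52 genes from 200 to under 1000 and 0.14 for 14 genes of 1000 or more, beside 0.31, 0.23, 0.19 and 0.15 for all genes of the same depth. Pearson's r of log2(CPM + 1) between replicate 1 and replicate 2 was 0.993 over the 184 members and 0.994 over all 15115 genes, which share the libraries and their depth.

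Some members are neighbours in the genome. By the RefSeq gene order of GRCr8, 7 pairs, with 14 members in all, had at most 2 named coding genes between them. Whether this is more than other lists of the same size would hold was not tested. Hoxb4 and Hoxb3 lie side by side, as do Hoxc5 and Hoxc4, and in both pairs the gene with the smaller number had about 2 times the reads, 5.57 against 2.64 CPM and 4.27 against 2.18 CPM. With 1 gene between them, Cand1 (257 CPM) and Grip1 (20.4 CPM) differed widely, whereas Foxp4 (7.06 CPM) and Tfeb (6.62 CPM) were close. Daxx and Phf1 (15.5 and 20.6 CPM), Zfp513 and Gtf3c2 (12.9 and 40.1 CPM) and Foxo4 and Med12 (24.6 and 34.7 CPM) had 2 genes between them.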

How the data were processed

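RNA-seq of 2 CFA libraries was analysed, out of 28 samples labelled in the series. The authors deposited a raw count for each Ensembl gene, obtained with HISAT2 on rn6, removal of ribosomal RNA and featureCounts, from poly(A) RNA and a strand-specific kit. Versions and the strand setting of the counting are not given in the sources used here, so overlapping and antisense genes and near-identical zinc finger copies may share or lose reads. CASAVA 1.8.2 is named in the submitters' processing notes. The authors also deposited ATAC-seq coverage, not used here, since its rn6 regions carry no gene names and the gene tables are of GRCr8.

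Members were matched by Ensembl identifier and symbol to the list of transcriptional regulators of the study, whose fold change and p-value columns were not used. None of the 3 genes set apart from the list was in it (0 found). Members, families and role lists were chosen with earlier results of these data known. Families were assigned by symbol. Named were the 3 genes with the highest level and the 1 with the lowest in each family (all in families of 5 or fewer), every gene of the role lists, members under 10 counts in a library, the 5 largest differences between the libraries and, chosen after their values were seen, the genome neighbours, remaining Hox genes and Runx2. Markers were paired with Ensembl genes through the study's list of shared genes, which holds no immune markers. The level of 1 member that this rule names is not reported here. Proteins and the domains planned for display were not analysed here.

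Counts were divided by library totals (10520647 and 28825688) to give CPM, with 1 CPM added before taking log2 and at least 10 counts required in both libraries where stated. Intervals are at 95%, exact Poisson for a level and exact Clopper-Pearson for a ratio. TMM (edgeR 4.0.16), DESeq2 1.42.0 size factors (R 4.3.3), other thresholds, filters and pseudocounts and single libraries were tried as alternatives. Tables and figures were made with scipy 1.17.1, pandas 2.3.3, numpy 2.4.6 and matplotlib 3.10.9 under Python 3.11.15, and the intervals and ratios were tested on simulated data. Promoters and gene order are from RefSeq, GRCr8: 142 members matched a promoter by symbol and 4 by an older symbol.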

Additional observations from a re-analysis of the deposited data

How the results depend on the processing

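A level was taken as kept where it moved by no more than the SD between the libraries, and a count where it stayed within 1.5 times. With both libraries in use, 39 alternatives of the main values kept the value and 4 did not, and for single genes and other values 164 did and 1 did not. The 164 were all scalings by TMM or DESeq2 size factors, as were most of the 39. These changed the library totals little and in opposite directions (TMM factors 1.005 and 0.995). A mean over both libraries could therefore hardly move, and these counts say little about how firm the levels are. With 1 library left out, 31 kept the main value and 3 did not, and the 164 levels of single genes were kept by construction, since a value of 2 libraries lies within their SD of the mean. The median level of the members became 11.7 CPM with library totals that leave out the 5 genes with the highest counts, an alternative chosen after seeing the data, which raises every CPM by its construction. With 1 library left out it was 10.9 to 11.4 CPM. The median of the developmental zinc finger genes was 5.89 to 6.52 CPM with 1 library left out, against 6.70 CPM, and that of the Sox genes 5.04 to 5.34 CPM, against 5.95 CPM, since the gene in the middle place depends on the libraries used. The number of members that differed between the libraries was 4 and became 0 with a difference above 1, 8 with a pseudocount of 0 CPM and 0 with a pseudocount of 5 CPM. The share of members at or above the median of all genes was 30.1% and became 54.3% against all genes with at least 1 count, a comparison also added after seeing the data. Depth limits the genes under 10 counts most, and the shallower library sets their precision. No paired analysis was possible because the RNA-seq libraries form 1 group. The order of families per length of coding sequence was not run, and neither was accessibility at the promoters with its other window, replicate block, left-out libraries and adjusted threshold.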
